A study of Homo sapiens with 10 samples.

Results

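Stretches of RNA carrying N6-methyladenosine (m6A) were called separately in 4 m6A-seq libraries of the human lung adenocarcinoma line A549 and its cisplatin-resistant derivative A549/DDP, and the regions described here are those called in every library. Peaks of the 4 lists were joined, also in chains, wherever they had 1 exon base or more in common on a strand. This gave 37903 merged regions. A region was kept when it held a peak of each list, which left 3304 regions (8.72% of all) in 2441 genes. The regions were chosen by the peak lists themselves, so their number, width and p-values are given as a description and were not tested.

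m6A is placed on RNA by a nuclear complex built around METTL3 and METTL14, is removed by FTO and ALKBH5, and is bound by reader proteins of the YTH family, which act on the splicing, translation and decay of the modified transcript. It is known to concentrate near stop codons, in long internal exons and in 3' untranslated regions, within a short consensus whose most frequent core is GGAC followed by a pyrimidine or adenine. Many modified messages encode transcription and signalling factors with short half-lives.

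The libraries were 2 m6A-seq and 2 input libraries of A549, and 2 of each kind of A549/DDP. No treatment is given for any of these samples, so the comparison is between lines, and the labels do not say whether A549/DDP is a single clone or whether the replicates came from separate cultures. P-values therefore measure the spread between these libraries, which may be technical. In m6A-seq, fragmented poly(A) RNA is enriched with an antibody to m6A and sequenced beside the input. The 4 inputs held 29225501 to 35286514 expected counts, whereas the lists hold no counts of reads and leave the depth of the m6A-seq libraries unknown. Keratins of a simple epithelium marked both lines (KRT8 at 2028 and 5231 TPM in A549 and 9818 and 9891 TPM in A549/DDP), and 6 of 7 epithelial markers reached a mean of 1 TPM (transcript abundance scaled for length and library size). Of 12 markers of blood, endothelial and stromal cells, COL1A1, ACTA2 and CD14 reached it (7.36, 21.8 and 1.74 TPM), PTPRC, CD3E, PECAM1 and VWF were below 0.1 TPM, and none of the 12 held a region called in all 4 lists.

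Sequence was read only where the RefSeq table of gene starts (GRCh38.p14) overlapped a region. Windows of 30 bases around GGACT, the commonest form of the m6A consensus, are shown because they lie in exon bases that all 4 lists cover, so each is a candidate position for the shared signal. The motif is in capitals, the strand is that of the transcript, and RNA is written as DNA. The genes are MUC5B (chr11:1249776-1249805, plus strand), BRD2 (chr6:32972843-32972872, plus), NDUFA1 (chrX:119871921-119871950, plus), TLNRD1 (chr15:81001916-81001945, plus), YWHAH (chr22:31944653-31944682, plus) and ZNF146 (chr19:36235704-36235733, plus).
MUC5B: cctccagtccaaGGACTgcaaccacccttc
BRD2: ccgaggccacccGGACTttccgcggctgag
NDUFA1: gagattctccccGGACTctccgtcatgggc
TLNRD1: aaccagcagaagGGACTttcctggcagccc
YWHAH: cgaccggggagcGGACTgaccggcgggagg
ZNF146: tgagaggcaccaGGACTtgggaggcatgtt

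MUC5B encodes a gel-forming airway mucin, BRD2 a reader of acetylated histones, NDUFA1 a subunit of respiratory complex I and YWHAH a 14-3-3 protein. The regions of these windows differed in the largest of the authors' peak p-values over the 4 lists. It was 0.016 for MUC5B, 0.0039 for ZNF146, 0.00019 for BRD2, 2.2e-05 for TLNRD1, 3.2e-06 for NDUFA1 and 3.8e-07 for YWHAH. The table covered 45836 bases in 425 of the 3304 regions. Searched on the transcript strand, these held GGACT 1.27 times per 1000 bases, against 1.39, 1.11 and 1.18 in regions of 3, 2 and 1 lists. In the bases common to all 4 lists, the density was 1.64 per 1000 bases (20 matches in 12216 bases), and over all 35116 gene-start windows it was 0.991 per 1000 bases. Each 300-base window takes in 250 bases before the annotated start and 50 after it, so most of it lies upstream of the start. The regions hold exon bases only, so the window density is not a like comparison. Of all the windows, 25.3% hold GGACT at least once, and 2.42% hold it within their central 30 bases, which lie before the start. The stretches searched in the regions lie beside the annotated start of some gene, not always the gene of the region, and make up a small portion of the regions. A match is a match of letters only.

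The 4 lists were of unequal length. The regions took up 4820 of 26320 peaks in A549 replicate 1 (18.3%), 5130 of 14576 in A549 replicate 2 (35.2%), 5289 of 27244 in A549/DDP replicate 1 (19.4%) and 5452 of 10661 in A549/DDP replicate 2 (51.1%). Just outside the rule lay 4679 regions called in 3 of 4 lists, and the list that lacked them was A549/DDP replicate 2 in 3001 of them (64.1%), A549 replicate 2 in 1071 (22.9%), A549 replicate 1 in 307 and A549/DDP replicate 1 in 300. With A549/DDP replicate 2 left out and the remaining 3 lists required, the count was 6374 regions in 3846 genes. Most of the regions that A549/DDP replicate 2 lacked were in genes with no peak anywhere in that list, since 598 of the 3001 (19.9%) had another peak of the gene there. There were 1373 genes with peaks in the other 3 lists and none in this one, with a median of 23.7 TPM over the A549/DDP inputs, against 41.8 TPM for all genes with a shared region. Genes lacking peaks in A549 replicate 1 alone went the other way (148 genes, 82.8 against 40.9 TPM over the A549 inputs), and those lacking them in A549 replicate 2 (483 genes) or A549/DDP replicate 1 (124 genes) alone were at 35.2 and 15.3 TPM.

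Most genes called in all 4 libraries held a shared region. A peak in every list was found for 2352 genes, and 2286 of them (97.2%) held at least 1 region shared by all 4 lists. The other 66 were called in every library without such a region. A further 155 genes held a shared region without being named in all 4 lists, because the region also took in peaks assigned to an overlapping gene.

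The p-values that the authors gave to the peaks were not smaller inside the shared regions in every library. The median inside against outside was 3.2e-05 against 4e-06 in A549 replicate 1 and 3.5e-05 against 1.4e-06 in A549/DDP replicate 1. In the shorter lists it was 6.8e-05 against 1e-04 in A549 replicate 2 and 1.9e-05 against 1.5e-05 in A549/DDP replicate 2. Only 394 of the 3304 regions (11.9%) had a p-value at or below 1e-05 in each list. Where a gene had several peaks in shared regions of a list, all of them carried the same p-value in 3267 of 5629 cases (58.0%).

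The shared regions were wide. Their exon blocks covered a median of 747 bases (quartiles 492.75 and 1140, range 97 to 5624), against 496 bases for regions in 3 lists, 300 in 2 lists and 150 in 1 list. Merging more peaks widens a region by itself. Single peaks inside were also longer, but a longer peak more readily shares a base with other lists, so the rule favours it. The median peak inside against outside measured 397 against 200 bases in A549 replicate 1 and 299 against 200 in A549 replicate 2. In A549/DDP replicate 1 it was 347 against 199. In A549/DDP replicate 2, too, the median peak inside was longer than the 151 bases outside. A single exon block made up 1448 regions (43.8%), and 956 (28.9%) had 3 or more blocks. The plot of width by number of lists shows the rise.

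**Figure D1:**
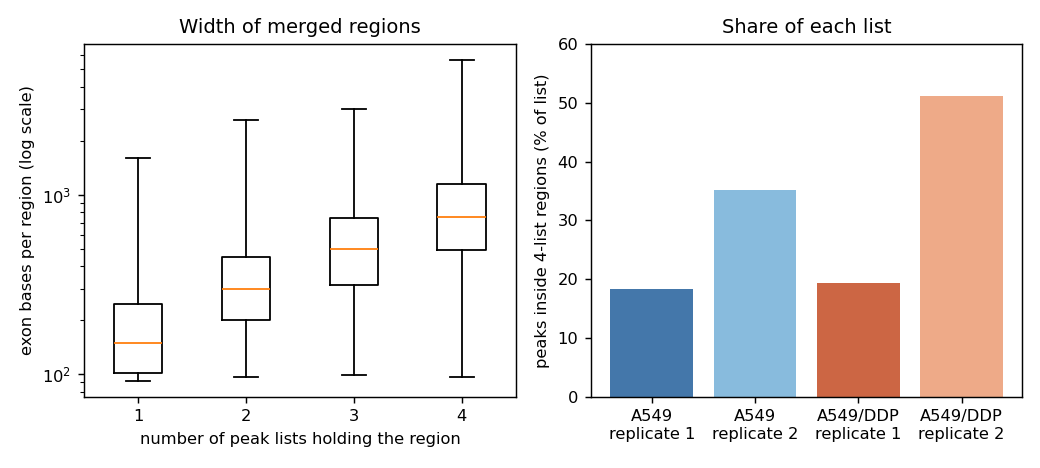
The left panel gives exon bases per merged region on a log scale for regions held by 1, 2, 3 or 4 peak lists, with the median, quartiles and full range, and the right panel gives the share of each list's peaks that lie in regions of all 4 lists. Medians rise from 150 to 747 bases, and the share runs from 18.3% in A549 replicate 1 to 51.1% in A549/DDP replicate 2.

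The widest region was in IRS1, the adaptor of the insulin and IGF1 receptors, with 5624 exon bases in 3 blocks between 226735646 and 226799759 of chromosome 2. It was built of 24 peaks, and 1798 of its bases were covered in every list. PLEC (plectin, a cytoskeletal linker) followed with 4699 bases, then the zinc finger gene ZNF646 with 4443, SMCR8 (an autophagy regulator) with 4339 and BCL9L, a coactivator of beta-catenin, with 4238. These regions differed in how far the lists coincided, from 12.5% of the bases shared by all 4 lists in ZNF646 to 69.3% in PLEC.

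The regions with the most exon blocks, up to 16, were all joined across neighbouring or overlapping genes. One took in R3HDM2 and ENSG00000258830, with 7 of its 2045 bases common to the 4 lists. Others took in CHMP4A and TM9SF1, SARNP and ENSG00000257390, MRPL12 and SLC25A10, and PEDS1 and UBE2V1. In all, 6.11% of the regions carried peaks of several gene identifiers, and the peak lists do not show which gene their reads came from.

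Within a region, the 4 libraries coincided only in part. At least 1 exon base was covered in every list in 3138 regions (95.0%), and in the other 166 the lists were linked by a chain of overlaps, as in VAMP3, PSMD4, SLC50A1, SLC25A44 and ELF3. The common core had a median of 200 bases, or 30.9% of the region, and 16 regions had the same exon bases in all 4 lists. Among these was the region of RPL13A (chr19:49490548-49490647), exactly 100 bases in each library.

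Libraries of the same line were not uniformly the most alike. Over the bases of the shared regions, the Jaccard index (bases in both lists over bases in either) was 0.671 for the pair of A549 lists and 0.488 for the pair of A549/DDP lists. Between lines it was 0.624 for the replicates numbered 1, 0.597 for A549 replicate 2 with A549/DDP replicate 1, and 0.491 and 0.501 for A549/DDP replicate 2 with either A549 list. The list with the fewest called bases was A549/DDP replicate 2 in 1647 regions (49.8%).

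Both A549 lists covered more bases than both A549/DDP lists in 831 of the 3304 regions (25.2%), and the opposite held in 283 (8.57%). The replicate numbers split the regions more strongly than the lines did, with both lists numbered 1 above both numbered 2 in 1048 regions (31.7%) and the reverse in 81 (2.45%). The regions named next were chosen after their values were seen, from the 5 in each direction with the widest separation between lines. GNPNAT1, MALAT1, ADAM9, ZBTB7A, KIAA2026 and the joined region of DDI2 and RSC1A1 were the others. In EIF3J, a translation initiation factor subunit, 101 and 101 bases were called in A549 and 650 and 451 in A549/DDP. In RAD50, of the double-strand break repair complex, the values were 101 and 301 against 1348 and 1149. In the reverse direction, FIZ1, a zinc finger gene, had 950 and 700 bases against 151 and 151, and GSPT2, a translation termination factor, had 1377 and 1133 against 246 and 249. The lists numbered 1 were longer than those numbered 2 in both lines (26320 against 14576 peaks in A549, 27244 against 10661 in A549/DDP). List length thus went with the replicate numbers, and its part in the called widths was not tested.

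Along the gene, the shared regions lay towards the 3' end. Measured from the annotated start to the end of the gene, introns included, the middle exon base of a region was at a median of 80.6% (2962 regions placed). The last decile of the gene span held 36.3% of them and the first decile 9.05%. Regions in fewer lists were distributed in nearly the same way, with 37.5%, 36.1% and 34.2% in the last decile and 11.7%, 11.9% and 11.4% in the first decile for 3, 2 and 1 lists. The plot of regions along the gene shows the 4 distributions.

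Protein-coding genes held 3076 of the regions (93.1%, against 92.9% of all merged regions) and long noncoding RNAs 70. By chromosome, the share of merged regions that all lists held was highest on chromosomes 20 (13.3%) and 19 (12.2%) and lowest on chromosome 4 (6.05%). MicroRNA hairpins that lay wholly within shared regions on the same strand were MIR943 in NELFA, MIR4751 in ATF5, MIR6805 in RPL28 and MIR6501 in SON. Of these, MIR4751 (chr19:49933064-49933137) was the one whose 74 bases were covered in all 4 lists.

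Genes with a shared region were more abundant in the input RNA than other genes with peaks. Among 15398 genes with a mean of at least 1 TPM, 2326 (15.1%) held a shared region. Their median was 41.8 and 45.1 TPM in the A549 inputs and 43.6 and 44.2 TPM in the A549/DDP inputs. For genes with peaks but no shared region it was 22.4, 25.4, 23.4 and 23.8 TPM, and for genes without peaks 4.31, 5.69, 6.24 and 6.25 TPM. The log2 difference between the first 2 medians was 0.88 ± 0.03 (SD, n = 4 libraries) and had the same sign in 4 of 4 libraries. An exact paired permutation test over the libraries (2-sided) gave p = 0.13, the smallest value that 4 libraries allow, so the design cannot reach 0.05. RNA level and the power to call a peak cannot be told apart here.

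The share of genes with a region rose from 1.95% in the lowest decile by mean TPM to 29.4% and 29.2% in the highest 2 deciles. It varied little with transcript length, from 14.7% to 17.1% in all deciles but the shortest, where it was 7.86%. The length counted instead in how many regions a gene held: genes with 1 region had a median transcript length of 1675 bases, those with 2 regions 2096, those with 3 regions 2531 and those with more 4058. In numbers, 1644 genes held 1 region, 575 held 2, 167 held 3 and 55 held at least 4.

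**Figure D2:**
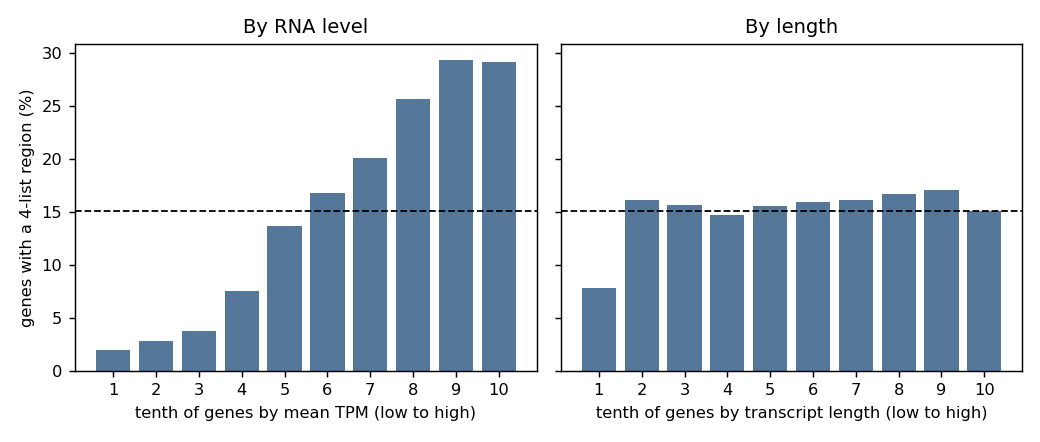
Share of expressed genes holding a region of all 4 lists, in deciles of mean input TPM (left) and of transcript length (right), with the share over all expressed genes as a dashed line (15.1%). The share climbs with RNA level from 1.95% to 29.4%, and beyond the shortest decile it stays between 14.7% and 17.1% by length.

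Genes with many shared regions were long and abundant, with a median of 83.1 TPM for those with at least 4 regions against 36.6 TPM for those with 1. MUC5B held 9, the atypical cadherin FAT1 held 8, and ICE1, MPRIP, PLEC, ZC3H11A and ZNFX1 held 6 each. ANKRD11 and ARHGAP21 were among those with 5. Neighbouring regions of a gene were often nearly touching: of 1004 such pairs, 311 (31.0%) were separated by at most 200 bases of the genome. In MUC5B, 9 regions between 1241118 and 1254310 of chromosome 11 covered 8658 exon bases. Its neighbouring regions at 1241118-1241968 and 1242068-1243118 lay 99 bases apart.

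The RNA of MUC5B separated the lines and its called bases did not. MUC5B was at 5.32 and 6.34 TPM in A549 and at 384.63 and 385.88 TPM in A549/DDP, with no overlap between the lines (log2 difference 5.81 ± 0.20 SE, edgeR adjusted p = 0.00096). Summed over its 9 regions, 5815 and 5065 bases were called in A549 and 5418 and 6416 bases in A549/DDP. The 2 ranges of called bases overlapped.

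Between the lines, edgeR called 2437 of 16406 genes different in input RNA (14.9%), and among genes with a shared region it called 531 of 2332 (22.8%), 291 higher and 240 lower in A549/DDP. Genes with peaks but no shared region were called in 19.4% and genes without peaks in 7.70%, and the 3 classes also differ in RNA level. With an input left out, the other sample of its line is alone and is assumed to vary like the samples of the other line. The number of called genes with a shared region was then 335 without A549/DDP replicate 1, 359 without A549/DDP replicate 2, 733 without A549 replicate 1 and 844 without A549 replicate 2. Of 51 genes named by rule with a called difference, 48, 49, 33 and 32 were still called without A549 replicate 1, A549 replicate 2, A549/DDP replicate 1 and A549/DDP replicate 2. When the shallow second A549 input pair replaced the first, 32 of the 51 were called in the same direction, and with both pairs together 14 were.

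Among genes with a region called in every list, the called width differed little with the direction of the RNA change. Genes without such a region were left out by the rule, including those with no peaks in a line. Whether whole peaks are lost or gained with the RNA was therefore not tested. For 208 genes whose regions belong to them alone and whose RNA was called at least 2-fold higher in A549/DDP, the median log2 ratio of called bases (A549/DDP over A549) was -0.13. For 180 genes called at least 2-fold lower it was -0.21, and for 1569 genes not called it was also -0.21. All 3 medians were below 0, with the ratio above 0 in 34.6%, 32.2% and 29.8% of the genes.

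The largest falls in RNA among genes with a shared region were in GADD45A and PPP1R15A, both induced by stress, in FOSL1, an AP-1 subunit, in CITED4, a CBP/p300 partner, and in CRIP1, a LIM protein. GADD45A was at 1482.9 and 644.81 TPM in A549 and 36.39 and 36.93 TPM in A549/DDP (log2 difference -4.76 ± 0.49). Its 2 regions held 792 and 839 called bases in A549 and 839 and 446 in A549/DDP. For PPP1R15A the RNA fell from 767.96 and 599.32 to 28.58 and 34.91 TPM (-4.47 ± 0.27), and the called bases were 949, 950, 1000 and 501 in the same order of libraries. In both genes the RNA of the lines was far apart and the called bases of A549/DDP replicate 1 lay at the level of A549.

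FOSL1 was lower in both measures in A549/DDP replicate 2. Its RNA was at 722.92 and 292.56 TPM in A549 and 31.88 and 14.15 TPM in A549/DDP (-4.38 ± 0.60), and its single region had 1094 and 646 called bases in A549 and 748 and 249 in A549/DDP, with 1 base common to all 4 lists. CITED4 fell from 191.05 and 149.84 to 10.15 and 7.8 TPM (-4.27 ± 0.31), and CRIP1 from 362.12 and 279.43 to 19.99 and 3.13 TPM (-4.18 ± 0.53). CRIP1 shares its region with ENSG00000257341 and had no peak of its own in A549/DDP replicate 1.

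The 5 largest rises were all in genes listed at 0 TPM in both A549 inputs, for which no fold is given. They were BCL2L2-PABPN1 (40.42 and 18.22 TPM in A549/DDP), THRIL (12.89 and 12.64), ENSG00000259171 (32.56 and 21.66), ENSG00000259132 (30.54 and 33.26) and ENSG00000267618 (4.27 and 16.3). BCL2L2-PABPN1 is a readthrough gene that overlaps PABPN1, and ENSG00000259132 shares its region with AJUBA and HAUS4, so their counts are uncertain. By the rule, the region of each includes peaks of both A549 lists. Peaks assigned to THRIL (3 and 1), ENSG00000259171 (1 and 1) and ENSG00000267618 (3 and 2) were called in A549 although their RNA was listed at 0. Their rises are therefore uncertain too, and the cause was not tested.

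**Figure D3:**
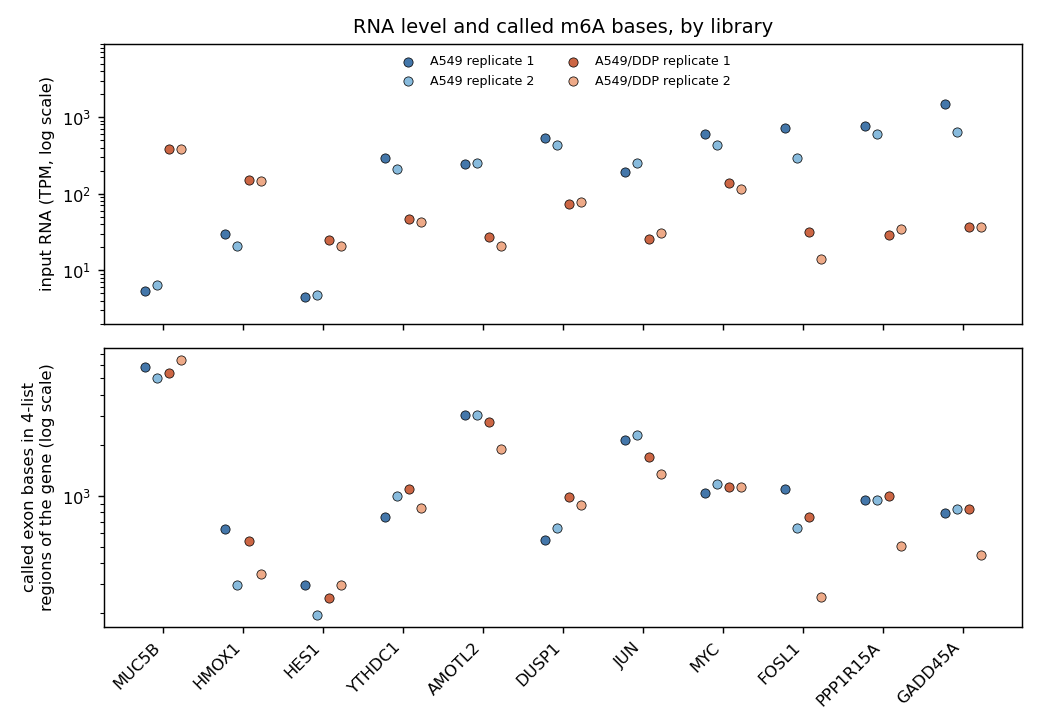
Input RNA in TPM (top) and called exon bases summed over the shared regions of a gene (bottom), both on log scales, with a point for each library of A549 (blue shades) and A549/DDP (red shades), with the 3 genes higher in A549/DDP on the left. The genes were picked from those with a called RNA difference, so the separation of their RNA was set by the choice. RNA runs from 5.32 against 385.88 TPM in MUC5B to 1482.9 against 36.39 TPM in GADD45A. Called bases overlap between the lines in MUC5B, HMOX1, HES1, YTHDC1, MYC, FOSL1, PPP1R15A and GADD45A. Over all 3304 shared regions, both A549 lists were above both A549/DDP lists in 25.2%, and the opposite held in 8.57%.

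Immediate early genes and other short-lived regulators, which are transcribed within minutes of a stimulus and whose messages decay fast, had the highest share of genes with a shared region among the lists examined. Of 27 expressed members, 19 held a shared region (70.4%), with 26 regions in all, against 15.1% of all expressed genes. The list was written with earlier results of these data known, so its share is a description and was not tested. Their median RNA level was 82.9 TPM, and in the decile of genes at that level, from 63.1 to 123 TPM, 29.4% held a region. In input RNA, 9 of the 19 were called lower in A549/DDP, 2 higher and 8 were not called, where 22.8% of all genes with a shared region were called.

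Among the AP-1 factors, FOSL1, FOSL2, JUN, JUNB and JUND each held 1 region. JUN was at 194.26 and 250.89 TPM in A549 and at 25.36 and 30.13 TPM in A549/DDP (log2 difference -3.00 ± 0.18, edgeR adjusted p = 0.0016). Its region spanned 2493 bases of an intronless gene (chr1:58781486-58783978, minus strand), with 2146 and 2294 called bases in A549 and 1699 and 1353 in A549/DDP. Here both the RNA and the called bases were lower in A549/DDP without overlap. JUND, by contrast, was at 61.99 and 84.66 TPM in A549 and 151.35 and 85.33 in A549/DDP and was not called (adjusted p = 0.14).

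MYC, the growth-promoting transcription factor, held 3 regions, at 13.1%, 43.2% and 73.6% of the gene. Its RNA fell from 607.75 and 427.58 to 138.14 and 113.94 TPM (-2.07 ± 0.27), and its called bases were 1036 and 1184 in A549 and 1134 and 1135 in A549/DDP. DUSP1, a phosphatase of MAP kinases, fell from 531.65 and 433.26 to 72.72 and 77.52 TPM (-2.70 ± 0.22). Its called bases went the other way, with 545 and 643 in A549 and 987 and 887 in A549/DDP.

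ZFP36, which promotes decay of AU-rich messages, and HES1, a Notch target, were called higher in A549/DDP. ZFP36 was not called without A549 replicate 1 or without either A549/DDP replicate, and fell below 0 (-1.48 on the log2 scale) with the second pair of A549 inputs. HES1 was at 4.52 and 4.74 TPM in A549 and 24.9 and 20.89 TPM in A549/DDP (2.36 ± 0.44), with a region of 295 bases. HES1 kept its direction but was not called with the second pair of A549 inputs (2.30) or with both pairs (2.31). IER5, an immediate early regulator of heat shock factors, had the smallest largest p-value of the list (1.4e-09), with 1745, 1697, 1846 and 1698 called bases of 2044. Of the 8 expressed members without a shared region, 4 had peaks in both A549 lists and none in A549/DDP: ATF3 (5 and 4 peaks), MAFF (5 and 4), EGR1 (2 and 2) and KLF2 (2 and 1). How many of all genes with peaks show this pattern was not counted, so nothing is read from it. The A549/DDP lists were the longest and the shortest (27244 and 10661 peaks). EGR1 and KLF2 were not called different in RNA (edgeR adjusted p = 0.30 and 0.39), which does not show that their RNA was equal. ATF3 was at 189.21 and 198.39 TPM in A549 and 0.39 and 20.1 in A549/DDP, and MAFF at 118.89 and 81.36 against 1.44 and 1.83.

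**Figure D4:**
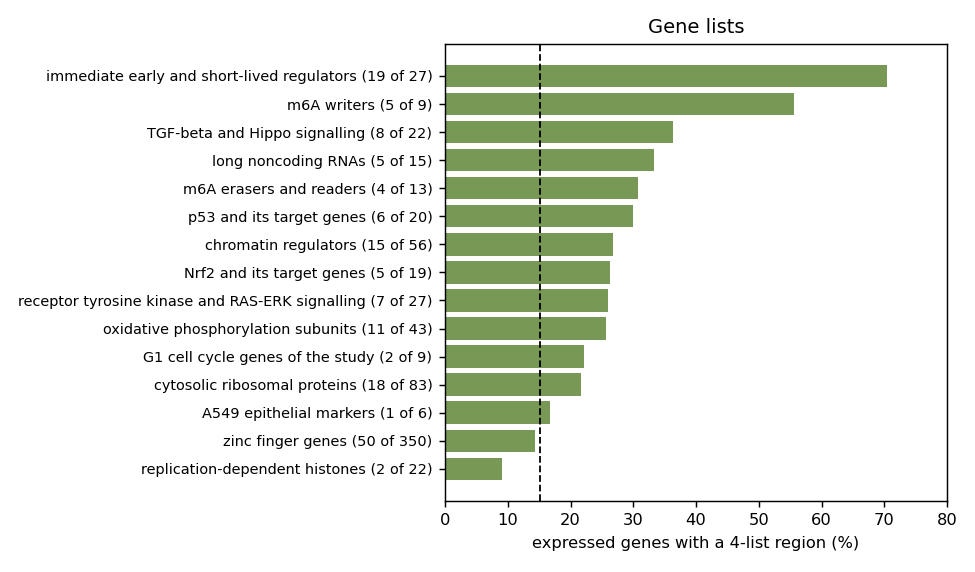
Share of the expressed genes of each list that hold a region of all 4 lists, with the number of genes in brackets and the share over all expressed genes as a dashed line (15.1%). Immediate early and short-lived regulators stand highest at 70.4%, and histones lowest of the lists drawn at 9.09%.

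Of 9 m6A writers, 5 held a shared region (55.6%), against 25.7% in the decile of the list's median RNA level. ZC3H13 held 3 regions, and RBM15, RBM15B, CBLL1 and METTL16 held 1 each. METTL3, the catalytic subunit, had peaks in 1 list, whereas METTL14, WTAP and VIRMA had peaks in 3. RBM15, which recruits the complex to RNA, had a region of 2783 bases in 1 block, with 2585 and 2488 called bases in A549 and 1692 and 949 in A549/DDP. METTL16, a separate methyltransferase, was called lower in A549/DDP (70.05 and 66.83 against 27.57 and 16.88 TPM, -1.30 ± 0.24), a call lost without A549/DDP replicate 2 and turned to 0.36 with the second pair of A549 inputs.

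Among 13 erasers and readers, YTHDF1, YTHDF2, YTHDF3 and YTHDC1 held shared regions (30.8%). In the decile of the list's median RNA level, 25.7% of genes held one. The 3 cytoplasmic readers were not called different. YTHDF1 was at 48.35 and 43.59 TPM in A549 and 42.67 and 46.03 in A549/DDP (-0.06 ± 0.20, adjusted p = 0.90). Its region of 1626 bases (chr20:63196611-63203788, minus strand) had 1331 and 1431 called bases in A549 and 1577 and 939 in A549/DDP. The nuclear reader YTHDC1 was called lower in A549/DDP, at 47.01 and 43.04 against 292.11 and 209.48 TPM (-2.26 ± 0.23), and held 3 regions, of which 2 had at most 1 base in common to all lists. HNRNPA2B1 and HNRNPC, at a mean of 2168 and 1067 TPM, held none.

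In TGF-beta and Hippo signalling, 8 of 22 expressed genes held a shared region (36.4%), of which 5 were called lower in A549/DDP and none higher. In the decile of the list's median RNA level 25.7% of genes held a region, and 22.8% of genes with a region were called. AMOTL2, an angiomotin that binds YAP, fell from 243.68 and 250.03 to 27.12 and 20.67 TPM (-3.26 ± 0.17) and held 3 regions with 3045 and 3044 called bases in A549 and 2748 and 1901 in A549/DDP. SMAD3, the receptor-activated SMAD, held 3 regions and fell from 445.3 and 619.28 to 150.7 and 165.52 TPM (-1.41 ± 0.17), but was not called with the second pair of A549 inputs (-0.029) or with both pairs (-0.99). AJUBA, SKIL and SMAD7 also fell, though SKIL was not called without A549/DDP replicate 1 and SMAD7 in 3 of the 4 leave-one-out fits. Of receptor tyrosine kinase and RAS-ERK genes, 7 of 27 held a region (25.9%), against 25.7% in the decile of the list's median RNA level. IGF1R held 4 regions in its last part, from 97.8% to 99.4% of the gene. The phosphatase DUSP5 fell by 2.18 ± 0.22 on the log2 scale.

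Of 56 expressed chromatin regulators, 15 held 46 regions (26.8%, against 25.7% in the decile of all genes where the median of the list, 46.2 TPM, lay). KMT2D, ARID1A, KDM2A and NCOA6 held 4 each. CREBBP, an acetyltransferase, and ARID1A, of the SWI/SNF complex, were called lower in A549/DDP, though ARID1A was not called without either A549/DDP replicate or with the second pair of A549 inputs (-0.11). CREBBP was at 105.88 and 88.39 TPM in A549 and 40.88 and 27.77 TPM in A549/DDP (-1.83 ± 0.18), with called bases of 3102 and 3253 against 3153 and 1405.

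Of 19 genes of the Nrf2 pathway, which meets oxidative and electrophilic stress, 5 held a shared region (26.3%, against 29.2% in the decile of the list's median RNA level), and 3 of those were called higher in A549/DDP, where 22.8% of genes with a region were called in either direction. HMOX1, heme oxygenase 1, was at 29.95 and 20.7 TPM in A549 and 150.7 and 147.09 TPM in A549/DDP (2.50 ± 0.22), with 639 and 296 called bases against 541 and 345. AKR1C2, a reductase near-identical to its paralogs, was at 1011 and 1510 TPM against 2759 and 3083 TPM (1.35 ± 0.16), and reads shared with the paralogs make its values uncertain. SRXN1, sulfiredoxin, rose by 1.15 ± 0.18 on the log2 scale, a call lost without A549/DDP replicate 1, and the cystine transporter SLC7A11 and thioredoxin TXN were not called.

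Of the genes that the study follows, CDK2, CDK4, CCND1, KEAP1, NFE2L2 and AKR1C1 held no region shared by all 4 lists, and YTHDF1 held 1. KEAP1, the repressor of Nrf2, had 6, 5, 3 and 0 peaks in A549 replicates 1 and 2 and A549/DDP replicates 1 and 2. NFE2L2, which encodes Nrf2, had 0, 3, 4 and 6 peaks. CDK2 and AKR1C1 had 4 peaks each in A549/DDP replicate 1 and none in the other lists. AKR1C1 is a paralog of AKR1C2, so shared reads make its peaks and RNA values uncertain as well. CCND1 had 1 in A549/DDP replicate 2, and CDK4 had 1 in A549 replicate 1 and 3 in A549/DDP replicate 1. In input RNA, KEAP1 (1.34 ± 0.21) and AKR1C1 (3.21 ± 0.16) were called higher in A549/DDP and NFE2L2 lower (-1.13 ± 0.17). CDK2, CDK4 and CCND1 were not called. KEAP1 and NFE2L2 lost the call with both pairs of A549 inputs, and NFE2L2 also without A549/DDP replicate 1 (-1.08). With the second pair in place of the first, the log2 difference of KEAP1 was 13.9, so its size depends on the inputs used. How far the peak counts follow the RNA was not tested. Of 9 G1 cell cycle genes, CDKN1B and E2F1 held a region (22.2%), against 29.4% in the decile of the list's median RNA level.

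Of 20 p53 pathway genes, 6 held a region (30%), against 20.1% in the decile of the list's median RNA level. They were BTG2, GDF15 and TNFRSF10B, all called lower in A549/DDP, and BBC3, BAX and MDM2, which were not called. Of all genes with a region, 22.8% were called in either direction. The call of BTG2 was lost in 3 of the 4 leave-one-out fits and that of GDF15 without A549/DDP replicate 2. MDM2 counts here through a region shared with ENSG00000256664, and its own peaks, 11 of them, were in A549/DDP replicate 1 alone. TNFRSF10B, a TRAIL receptor, fell from 307.2 and 214.35 to 134.91 and 58.33 TPM (-1.62 ± 0.28), with the opposite sign (0.81) against the second pair of A549 inputs.

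Of 15 expressed long noncoding RNAs, 5 held a region (33.3%), against 29.4% in the decile of the list's median RNA level. TUG1 held 3, MALAT1 held 2, and NEAT1, NORAD and MIR22HG held 1 each. In MALAT1, a nuclear RNA of splicing speckles, the larger region (chr11:65499105-65501592) had 344 and 589 called bases in A549 and 1723 and 1846 in A549/DDP. The RNA went the other way, at 309.25 and 300.25 TPM in A549 and 240.89 and 169.37 TPM in A549/DDP (-0.69 ± 0.16, adjusted p = 0.041), and was not called without either A549/DDP replicate. NORAD, a decoy of Pumilio proteins, had a region of 1049 bases with 751 common to all lists.

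The housekeeping lists have abundant and short transcripts. Of 43 oxidative phosphorylation subunits, 11 held a region (25.6%), and of 83 cytosolic ribosomal protein genes 18 did (21.7%), against 29.2% in the highest decile of genes by TPM. In the deciles of their median transcript lengths, 766 and 637 bases, the share was 16.2% and 7.86%. RPL13A, RPS2 and RPL41 were, with KRT8 and the ferritin heavy chain FTH1, the 5 most abundant genes with a shared region, at means of 3282 to 6742 TPM. NDUFS3, COX6A1 and COX6B1 were called higher in A549/DDP, but NDUFS3 and COX6A1 share their regions with other genes, and all 3 were below 0 with the second pair of A549 inputs (-0.016, -0.55 and -1.49 on the log2 scale). Ribosomal protein genes have many processed pseudogenes, so their values are uncertain where reads could be split.

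Of 350 zinc finger genes of the ZNF series, 50 held a region (14.3%). All expressed genes held one in 15.1%, and genes in the decile where the median of the list lay (8.55 TPM) in 7.54%. Of 22 expressed histone genes, 2 held a region (9.09%), against 3.77% in the decile of the list's median RNA level. KRT8 was the single epithelial marker of 6 expressed with a shared region (16.7%), against 29.4% in the matching decile.

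Some shared regions lay in genes with almost no RNA in the inputs. Of the genes with a region, 115 were below a mean of 1 TPM, and 61 of these were listed at 0. For 57 regions every gene named in the region was below 1 TPM, and 53 of them (93.0%) shared exon bases with a merged region on the opposite strand, against 362 of 3247 (11.1%) where a gene of the region reached 1 TPM. The genes on the opposite strand were all expressed at 1 TPM or more, with a median of 58.7 TPM. Over all merged regions, the share with called bases on the opposite strand was 12.6%, 10.0%, 7.01% and 4.17% for 4, 3, 2 and 1 lists.

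These pairs included some of the smallest p-values. Of the 10 shared regions with the smallest largest p-value, 5 lay in a gene at 0 TPM in every input, each opposite a region of an expressed gene: ENSG00000274177 opposite TMEM259, ENSG00000262211 opposite IL6ST, IER3-AS1 opposite IER3, ENSG00000253356 opposite LSM1 and ENSG00000250186 opposite PHB1. IER3-AS1 (chr6:30743305-30743592, plus strand) had a largest p-value of 1.1e-09 and 0 TPM in all inputs, whereas IER3, on the minus strand, was at a mean of 111 TPM. The other 5 were in CCDC85B, IER5, VEGFB, CCDC71L and the joined region of MRPL12 and SLC25A10, led by CCDC85B, a coiled-coil protein gene, at 7.9e-13. The libraries were made with a strand-specific kit, but whether strand was used in calling peaks is not given in the sources used here, so reads of a gene and its antisense partner cannot be told apart in the lists.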

How the data were processed

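The data were 4 m6A-seq peak lists and 4 input libraries, 2 of each kind for A549 and for A549/DDP, and a further pair of A549 inputs used only as an alternative, since its labels differ from the first pair by a full stop. For A549 m6A-seq, replicate numbers follow the labels, which are exchanged relative to the names of the deposited lists. The members and gene lists were chosen with earlier results of these data known.

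The authors deposited, for each m6A-seq library, a list of peaks, each placed by its blocks and strand and assigned to a gene, with a p-value that is not said to be raw or adjusted. Replicates were not pooled. For each input the authors deposited an expected count, TPM and FPKM for each gene. The expected counts are not normalized, and TPM and FPKM are scaled for length and library size. The submitters' processing notes name STAR, RSEM, bedtools and hg38 without roles. The peak caller is not given in the sources used here. Libraries were of poly(A) RNA and strand-specific.

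Peaks were merged in Python 3.11.15 by connected components of exon blocks sharing at least 1 base on a strand, a step tested on simulated intervals. Coordinates are counted from 1. Gene spans came from RefSeq GRCh38.p14, and 9804 of 9899 genes with peaks were matched to a symbol. Expected counts were rounded, filtered by filterByExpr, scaled by TMM and tested with the quasi-likelihood test of edgeR 4.0.16 in R 4.3.3 (Benjamini-Hochberg over 16406 genes, threshold 0.05), also tested on simulated data. Standard errors are the log2 difference over the root of F. Input counts totalled 29225501 to 35286514, and the common biological coefficient of variation was 0.656. An exact paired permutation test compared medians over the 4 inputs. Alternatives were another overlap, p-value, list size, chaining, strand, normalization, filter, unit, block and pair of inputs, DESeq2 1.42.0, and leaving out each library.

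Named genes were those of the lists that hold a shared region, the 10 with the most regions, the 5 widest regions and the 5 with the most blocks, the 10 with the smallest largest p-value, the 5 most abundant genes, the 5 largest rises and falls with an adjusted p under 0.05, a mean of at least 5 TPM and 1 direction in both same-numbered pairs, the 5 with the fewest common bases, and the genes the study names. Where more regions tied for the fewest common bases, the first in order of position are named. A few genes that these rules name are not reported here. YTHDF1 RIP-seq was not analysed here.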

Additional observations from a re-analysis of the deposited data

How the results depend on the processing

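The number of regions and genes called in all 4 lists (3304 and 2441) depended on thresholds more than on how peaks were joined. A p-value at or below 1e-05 left 395 regions in 344 genes, and lists of equal size (10661 peaks, ranked by p-value) left 489 regions in 425 genes. The counts were 3374 and 2393 with an overlap of 50% of the shorter peak, 3138 and 2374 where 1 base had to be common to every list, and 3220 and 2666 without regard to strand. Leaving out each m6A library and requiring the other 3 gave 3731 to 6374 regions in 2540 to 3846 genes, with the highest values without A549/DDP replicate 2.

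The 531 genes with a shared region called different in RNA became 840 with no filter beyond 1 count, 830 with DESeq2, 904 with the second pair of A549 inputs (650 higher, 254 lower) and 110 with both pairs. Leaving out each input gave 335 to 844. The second pair held 855034 and 982036 counts. Of the 51 named genes with a called difference, 12 kept their direction and lost the call with the second pair, and 34 did so with both pairs. With it, COX6A1 (-0.55), COX6B1 (-1.49), METTL16 (0.36), NDUFS3 (-0.016), TNFRSF10B (0.81), TUG1 (1.17) and ZFP36 (-1.48) changed sign on the log2 scale, and with both pairs COX6A1 (-0.069), COX6B1 (-0.89) and ZFP36 (-0.62) did, and the cause was not tested. Replicate 1 of the lines did not deviate together from the line means (correlation 0.02), so the replicate numbers were not taken as pairs. With the replicate block 752 genes were called, and all 51 named genes with a called difference were called with it in the same direction. The log2 difference in median RNA level ranged from 0.87 to 0.99 over all alternatives, each positive, with p at the smallest value the libraries allow.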
